A study of Mus musculus with 11 samples.

Results

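The annexin family was followed through RNA-seq of epidermal cells from mice that lack Langerhans cells (LCs). It was represented by 10 genes, Anxa1, Anxa2, Anxa3, Anxa4, Anxa5, Anxa6, Anxa7, Anxa8, Anxa9 and Anxa11, of 52550 genes in the table. The family was chosen because Anxa3 had the largest increase in keratinocytes, so the genotype difference of the annexins in keratinocytes is given as a description: where the fit across all genes places a member is stated, and no p-value is given. Anxa3 has no p-value in any comparison. Of the other annexin genes of the mouse, Anxa10 had 0 reads in every library and Anxa13 had 1 read in 1 library. All 10 members passed the filter on low values, which kept 14419 genes with a CPM (reads of a gene scaled to the library total) above 1 in at least 2 of the 11 libraries. Anxa3 passed it only through the 3 keratinocyte libraries without LCs, in which it was high, and the other 9 members passed it in all 11 libraries.

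LC-/- mice carry huLangerin-DTA, in which the promoter of human Langerin drives diphtheria toxin subunit A, and lack LCs from birth, so the comparison concerns long-term absence and not acute loss. They were compared with littermate wild type (WT) mice, all females of 8 weeks, with no further treatment in either group. Sorted from flank epidermis were keratinocytes (KCs; CD45-, MHC class II-, langerin- and c-kit-) and dendritic epidermal T cells (DETCs; CD45+ and negative for the other 3). There were 3 WT and 3 LC-/- KC libraries and 3 WT and 2 LC-/- DETC libraries. They are named W1, W2, W3, L1, L2 and L3 after the order of the numbers in their labels, and there was no DETC library L1.

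Annexins are proteins that bind acidic phospholipids of membranes when calcium rises. They share a conserved core of annexin repeats, and their amino-terminal tails differ and carry the binding sites for partners such as the S100 proteins. They are known for roles in membrane repair, in vesicle traffic and in the handling of phosphatidylserine on dying cells, and several of them are abundant in stratified epithelia.

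The 10 members are protein-coding genes spread over 7 chromosomes of build GRCm38. Anxa3 lies on chromosome 5 (96793339 to 96845966, plus strand) and Anxa6 on chromosome 11 (54979108 to 55033445, minus strand). Anxa8 (34085981 to 34100571, plus strand) and Anxa11 (25842156 to 25886804, plus strand) both lie on chromosome 14, as does Anxa7, and Anxa5 and Anxa9 share chromosome 3.

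Values are normalized counts, that is, reads per gene divided by a size factor of each library. Libraries held 13491075 to 19750440 reads on genes. Cd207, which encodes langerin, had 6, 29 and 18 reads in the WT KC libraries and 0 in each LC-/- KC library. In DETCs it had 20, 20 and 48 reads in the WT libraries, and 0 (L2) and 4 (L3) in the LC-/- libraries. All 18 DETC markers were higher in DETC than in KC libraries in both genotypes, and all 18 keratinocyte markers were lower, yet the latter did not vanish. Their median level in the DETC libraries was 15.0% (W1), 14.9% (W2), 18.1% (W3), 23.5% (L2) and 15.7% (L3) of the mean of the KC libraries of the same genotype. Keratinocyte RNA in the DETC libraries thus differed between libraries and was highest in L2, and each value of a DETC library is read beside this share. In sorted bulk samples, fewer cells of a type and less RNA per cell cannot be told apart.

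The families of annexin transcripts in the 2 populations had a different make-up. KCs were dominated by Anxa8, Anxa2 and Anxa1, whereas DETC libraries held Anxa2, Anxa6, Anxa8 and Anxa5 at levels of the same order, of which the Anxa8 level, as shown further on, lay within 3 points of the keratinocyte share of each library. To compare genes with each other, normalized counts were divided by the summed exon length of the gene in kilobases (kb). In WT KCs the levels per kb were 13479 ± 1399 for Anxa8, 6426 ± 345 for Anxa2, 4429 ± 241 for Anxa1, 1395 ± 47.1 for Anxa5, 735 ± 30.3 for Anxa7, 362 ± 10.4 for Anxa4, 95.2 ± 10.6 for Anxa11, 75.6 ± 9.94 for Anxa6, 46.2 ± 4.82 for Anxa9 and 2.01 ± 0.75 for Anxa3 (SD, n = 3). The order was the same in LC-/- KCs, and in neither genotype did the libraries of neighbours in this order overlap. In WT DETCs the levels per kb were 3176 ± 109 for Anxa2, 2253 ± 186 for Anxa6, 2156 ± 204 for Anxa8, 1437 ± 103 for Anxa5, 861 ± 35.3 for Anxa1, 612 ± 5.26 for Anxa11, 253 ± 10.1 for Anxa7, 96.3 ± 8.60 for Anxa4 and 48.8 ± 9.59 for Anxa9 (SD, n = 3). Anxa6 and Anxa8 overlapped there and stood in the opposite order in LC-/- DETCs, where they overlapped as well. No other neighbours overlapped in either genotype of DETCs.

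**Figure D1:**
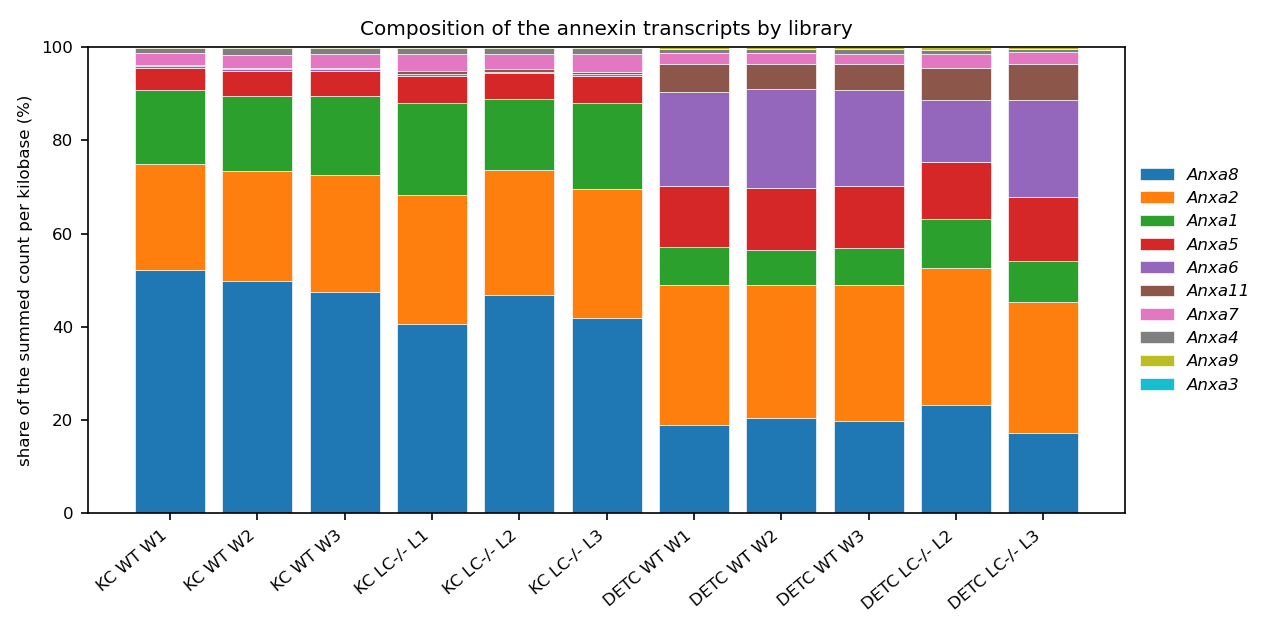
Share of each annexin (y axis, percent of the summed normalized count per kilobase of the 10 genes) in each of the 11 libraries (x axis). Anxa8 took 47.4% to 52.1% of the sum in WT KCs and 40.6% to 46.8% in LC-/- KCs, and Anxa6 took 13.4% to 21.3% in DETCs against 0.226% to 0.392% in KCs.

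Per kb, Anxa8 made up 49.8% of the annexin sum in WT KCs and 43.1% in LC-/- KCs. Anxa6 made up 20.7% in WT DETCs and 17.1% in LC-/- DETCs, as the plot of the composition shows. All annexins together held 0.464% to 0.542% of the reads of a KC library and 0.153% to 0.205% of those of a DETC library, so the whole family took a smaller share in DETCs.

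The promoters of Anxa8, the member with the highest level per kb in KCs, and of Anxa11, one of the members that were higher in DETCs and did not overlap between genotypes, are shown because they belong to opposite sides of this split. They are the 250 bases before the start of the gene from RefSeq on build GRCm38.p6, where 8 of the 10 members had an entry, Anxa3 and Anxa6 not. Both strands were searched for the TATA box (TATAAA), the GC box (GGGCGG), the CCAAT box by its name, the E-box (CACGTG), the AP-1 site (TGANTCA) and the core of the interferon-stimulated response element, with no overlap between matches of different motifs in these windows. Matches are in capitals.
Anxa8, chr14:34085729-34085978, plus strand: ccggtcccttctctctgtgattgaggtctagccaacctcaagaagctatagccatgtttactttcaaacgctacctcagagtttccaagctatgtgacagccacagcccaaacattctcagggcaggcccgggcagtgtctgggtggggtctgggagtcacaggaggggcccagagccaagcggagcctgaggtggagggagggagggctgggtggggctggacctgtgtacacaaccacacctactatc
Anxa11, chr14:25841905-25842154, plus strand: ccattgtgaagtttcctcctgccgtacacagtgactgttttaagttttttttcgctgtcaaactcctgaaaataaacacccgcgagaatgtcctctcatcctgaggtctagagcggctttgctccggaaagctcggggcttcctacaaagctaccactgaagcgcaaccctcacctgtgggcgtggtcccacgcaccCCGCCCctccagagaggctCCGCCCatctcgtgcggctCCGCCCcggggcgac
The Anxa11 window held 3 GC boxes on the minus strand, which began 53, 34 and 15 bases before the start, and none of the other motifs. None of the 6 motifs was found in the Anxa8 window. A TATA box lay in the windows of Anxa1 and Anxa2, and an AP-1 match in that of Anxa2 alone among the members. Of 32851 mouse promoters of this length, 32.7% held a GC box, 12.4% a TATA box, 6.75% an AP-1 match, 33.8% a CCAAT match, 6.02% an E-box and 2.98% the interferon element. These matches are a description of the letters and not of bound sites.

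The next question was which annexins distinguish DETCs from KCs in the same genotype. In WT mice, 2 of the 9 members other than Anxa3 were higher in DETCs (Anxa6 and Anxa11), 5 were lower (Anxa8, Anxa1, Anxa4, Anxa7 and Anxa2), and Anxa5 and Anxa9 did not pass the test. The same genes passed in the same direction in LC-/- mice. The libraries of these 7 genes did not overlap between populations in either genotype. The share of all genes without such overlap was not counted, so nothing is read from this. The background is high: of all genes tested, 41.0% were higher and 35.1% lower in WT DETCs (limma on log2 of the normalized count plus 1, Benjamini-Hochberg adjusted p under 0.05), and 38.1% were higher and 32.1% lower in LC-/- DETCs, so the share of members called in either direction is near that of genes at large. Scaling sets the balance of these calls, since quantile normalization moved the median difference of all genes from 0.07 to -0.24 in WT and from 0.08 to -0.28 in LC-/- mice on the log2 scale, and the split from 5906 higher and 5059 lower genes to 4693 and 6658 in WT and from 5497 and 4629 to 4196 and 6401 in LC-/- mice.

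Anxa6, a large annexin with a duplicated core that is known from lymphocytes and from the traffic of cholesterol, had the largest log2 difference of the 9 members tested, in both genotypes. It had 6029, 7112 and 6662 normalized counts in the WT DETC libraries and 4417 and 5727 in the LC-/- DETC libraries. In KCs it had 192, 223 and 249.8 in WT and 283, 230.1 and 264 in LC-/- libraries. Every DETC library was thus far above every KC library, 29.8-fold by the means in WT and 19.6-fold in LC-/- mice. The log2 difference was 4.90 ± 0.10 (SE) in WT (limma, adjusted p = 4.22e-10) and 4.28 ± 0.15 in LC-/- mice (limma, adjusted p = 2.02e-06).

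Anxa11, which binds the calcium-binding proteins S100a6 and Pdcd6 and travels with RNA granules on lysosomes, was the other member on the DETC side. It had 2507, 2533 and 2549.8 normalized counts in WT and 3198 and 2992 in LC-/- DETC libraries, against 386, 354 and 441 in WT and 682, 635 and 603 in LC-/- KC libraries. The log2 difference between DETCs and KCs was 2.69 ± 0.09 in WT (limma, adjusted p = 4.02e-09) and 2.27 ± 0.09 in LC-/- mice (limma, adjusted p = 3.49e-06). Transcripts of 2 predicted genes match Anxa11 at 100% identity, Gm2260 over 657 bases and Gm2274 over 602 bases, and the counting could split reads between them. Gm2260 had 3.15 to 8.20 normalized counts in KCs and 20.7 to 50.9 in DETCs, and Gm2274 had at most 1.65 in any library. The exons of Anxa11 also overlap the antisense gene Anxa11os by 113 bases, which had 0 to 9.08 normalized counts, and whether the counting used strand is not given in the sources used here.

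Among the members on the KC side, Anxa8 and Anxa1 came closest to the keratinocyte markers. Anxa8, a member known from squamous epithelia, had 28374, 23961 and 23687 normalized counts in WT KCs and 3632, 4381 and 4146 in WT DETCs. Its DETC values were 14.3%, 17.3% and 16.4% of the WT KC mean, and 23.9% (L2) and 14.7% (L3) of the LC-/- KC mean. These percentages lie within 3 points of the keratinocyte share of the same library, and L2 was the highest for both. Anxa1, the glucocorticoid-induced annexin that dampens inflammation through formyl peptide receptors, had 13496, 12124 and 13062 in WT KCs and 2459, 2435 and 2624 in WT DETCs. In the DETC libraries it stood at 19.1%, 18.9%, 20.3%, 26.3% and 18.3% of the KC mean (W1, W2, W3, L2 and L3), above the keratinocyte share in each. The log2 difference in WT was -2.64 ± 0.11 for Anxa8 (limma, adjusted p = 1.78e-08) and -2.36 ± 0.07 for Anxa1 (limma, adjusted p = 3.78e-09).

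Anxa4, Anxa7 and Anxa2 were lower in DETCs by less than the median keratinocyte marker, although the highest marker reached 38.7% in W2 and 43.7% in L2, above Anxa4 and Anxa7 there. Anxa4, an annexin of epithelial membranes, stood at 26.1%, 24.5%, 29.2%, 31.1% and 21.1% of the KC mean in the same order of libraries. Anxa7, a fusion-promoting annexin also called synexin, stood at 32.9%, 35.6%, 34.6%, 35.2% and 26.9%. Anxa2, which forms a tetramer with S100a10 and serves plasminogen at the cell surface, stood at 47.5%, 50.7%, 50.0%, 46.9% and 38.0%. Each of these 15 values was above the keratinocyte share of its library. The log2 difference in WT was -1.91 ± 0.08 for Anxa4 (limma, adjusted p = 2.31e-08). It was -1.54 ± 0.07 for Anxa7 (limma, adjusted p = 2.81e-08) and -1.02 ± 0.09 for Anxa2 (limma, adjusted p = 5.88e-06). For the keratinocyte list behind the share, the median log2 difference was -2.68 in WT and -2.32 in LC-/- mice. For 9 suprabasal keratinocyte markers, with Krt1 and Krt10 in both lists, the median was -1.19 and -1.58. Of these markers, 7 in WT and 6 in LC-/- mice were called lower by limma, and 0 higher. Lor and Flg of this list had positive log2 differences without being called, and their libraries overlapped between populations. The values were 0.75 (WT) and 0.84 (LC-/-) for Lor, and 0.76 (WT) and 0.81 (LC-/-) for Flg. The part of suprabasal keratinocyte RNA in the Anxa4, Anxa7 and Anxa2 values was not tested. In LC-/- mice the log2 differences of the 5 members on the KC side ran from -1.24 ± 0.12 for Anxa2 (limma, adjusted p = 1.65e-04) to -2.41 ± 0.21 for Anxa8 (limma, adjusted p = 8.72e-05), in the order Anxa8, Anxa1, Anxa4, Anxa7 and Anxa2 that was also seen in WT mice.

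**Figure D2:**
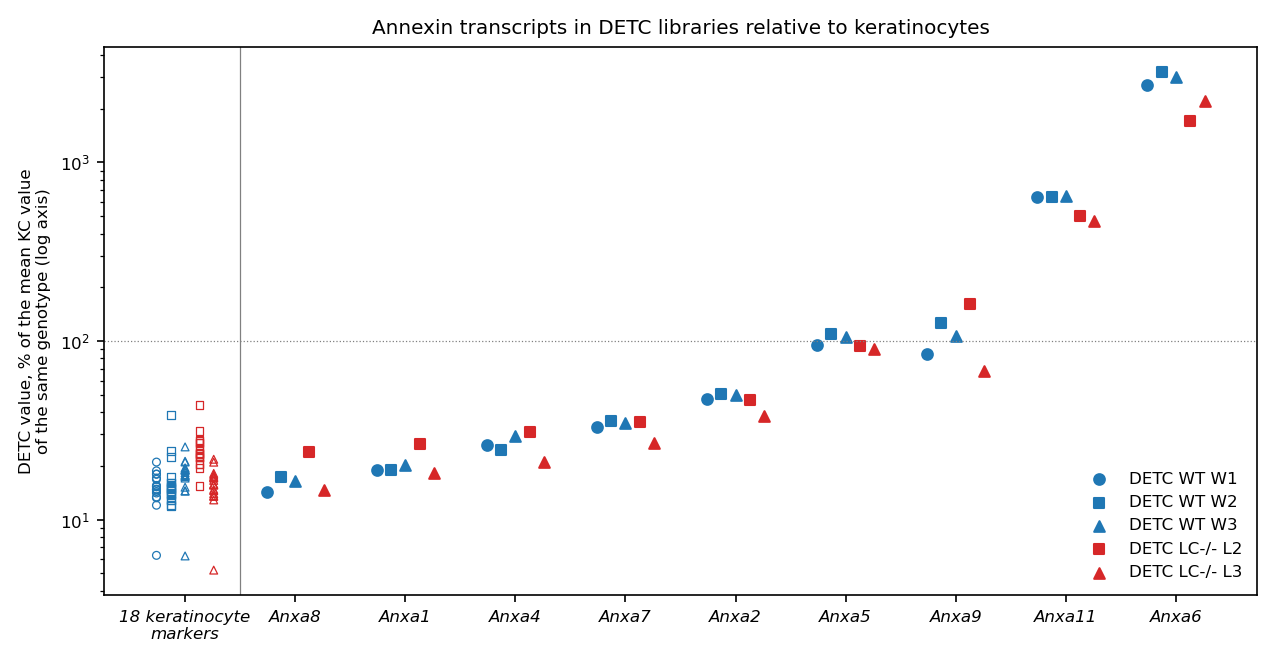
Normalized count of 9 annexins in each DETC library (y axis, log scale, percent of the mean of the KC libraries of the same genotype); open symbols at the left are the 18 keratinocyte markers, the dotted line is 100%, and Anxa3, with at most 3 reads in a DETC library, is left out. Anxa8 lies among the markers, Anxa2 lies at 38.0% to 50.7%, and Anxa11 and Anxa6 lie at 467% to 3213% in all 5 libraries.

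A keratinocyte share was then subtracted from each DETC library, an alternative chosen after the data had been seen, in which the share of the library times the KC mean was removed. What was left was not rescaled, and subtraction of a share from the suprabasal markers was not tested. Anxa8 was left with 0, 598 and 0 normalized counts in WT and 79.8 and 0 in LC-/- DETCs, and Anxa1 with 290.3 to 518 over the 5 libraries. Anxa2 kept 5808 to 8585 and Anxa6 kept 4356 to 7079, so that Anxa2 and Anxa6 had the most counts of the family after subtraction. Anxa5 kept 1819 to 2331, Anxa7 598 to 912, Anxa4 85.1 to 187 and Anxa11 2447 to 3048. Subtraction can only lower a DETC value, so it is no test of the direction of the members on the KC side, and Anxa6 and Anxa11 were still higher in DETCs after it. The direction of Anxa6, Anxa11, Anxa8, Anxa1, Anxa4, Anxa7 and Anxa2 between populations was the same after quantile normalization.

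Anxa5, the annexin used to label phosphatidylserine on dying cells, was abundant in both populations. It had 2444, 2418 and 2574 normalized counts in WT KCs, 2347, 2701 and 2610.0 in WT DETCs, 2553, 2529.5 and 2651 in LC-/- KCs and 2424 and 2315 in LC-/- DETCs. The WT populations overlapped, with a log2 difference of 0.04 ± 0.07 (limma, adjusted p = 0.631), but this turned to -0.25 (limma, adjusted p = 0.00311) with quantile normalization, close to the shift of all genes under that scaling. After subtraction it was -0.20 (limma, adjusted p = 0.0415). Subtraction lowers the DETC value of a gene that is equal in both populations, so this value is no test of a difference. In LC-/- mice both DETC libraries were below all 3 KC libraries, with a log2 difference of -0.12 ± 0.08 (limma, adjusted p = 0.194), and of -0.44 (limma, adjusted p = 0.0014) with quantile normalization.

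Anxa9, a member with an altered calcium-binding core, was low and variable, with 56 to 152 reads in a library. It had 87.1, 107 and 93.4 normalized counts in WT KCs and 80.8, 120.5 and 102 in WT DETCs, and the groups overlapped in both genotypes. The log2 difference was 0.06 ± 0.18 in WT (limma, adjusted p = 0.758) and 0.17 ± 0.49 in LC-/- mice (limma, adjusted p = 0.771), and both turned negative with quantile normalization. In LC-/- libraries it had 71.6, 145 and 58.8 in KCs and 148 and 61.9 in DETCs. Exons of Anxa9 overlap Mindy1 on the opposite strand by 71 bases, and Mindy1 had 206 to 762 normalized counts.

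Anxa3 had too few reads in DETCs for a comparison. It had 1, 0 and 0 reads in WT and 3 and 3 reads in LC-/- DETC libraries, which is at or under the 3 reads that a count of 0 allows (1.52e-05% to 2.22e-05% of a library, counting error only). Its level in DETCs was not measurable at this depth.

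The second question was what the absence of LCs changed. In KCs, the fit across all genes placed 2 of the 10 members, Anxa3 and Anxa11, among the genes called higher, and none among those called lower. Of all genes tested, 5.37% were called higher and 1.85% lower in LC-/- KCs. As the family was selected on this contrast, the count is a description and nothing is read from it. It also moved with single libraries: none of the 10 was called when W1, W2, L1 or L3 was left out, 1 was called without L2, and 1042 genes in all fell to 15 without W1, 16 without W2, 224 without W3, 5 without L1 and 16 without L3.

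Anxa3, an annexin known from neutrophils and from several epithelia, had 5.12, 6.49 and 10.4 normalized counts in WT KCs and 56.2, 33.6 and 38.9 in LC-/- KCs. These stand for 5, 7 and 12 reads against 51, 33 and 37 reads, so every LC-/- library was more than 3-fold above the highest WT library. The means were 7.33 ± 2.72 and 42.9 ± 11.8 (SD, n = 3), a ratio of 5.85. The log2 fold change was 2.41 ± 0.31 (SE) and 1.72 with a pseudocount of 8, and it ran from 2.21 to 2.66 when 1 library was left out. This is the value by which the family was chosen, as the largest among 764 genes that were called higher, had a mean of at least 10 and did not overlap between genotypes, and the next was Inhba (a subunit of activin A) with 1.83 ± 0.31. Even so, Anxa3 was the least abundant of the 10 members in LC-/- KCs, with 11.8 ± 3.24 per kb against 44.2 ± 22.3 for Anxa9 (SD, n = 3). It made up 0.046% of the annexin sum per kb there and 0.008% in WT KCs. The predicted gene Gm42603 overlaps an exon of Anxa3 by 112 bases on the same strand and had 0 to 4.41 normalized counts.

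**Figure D3:**
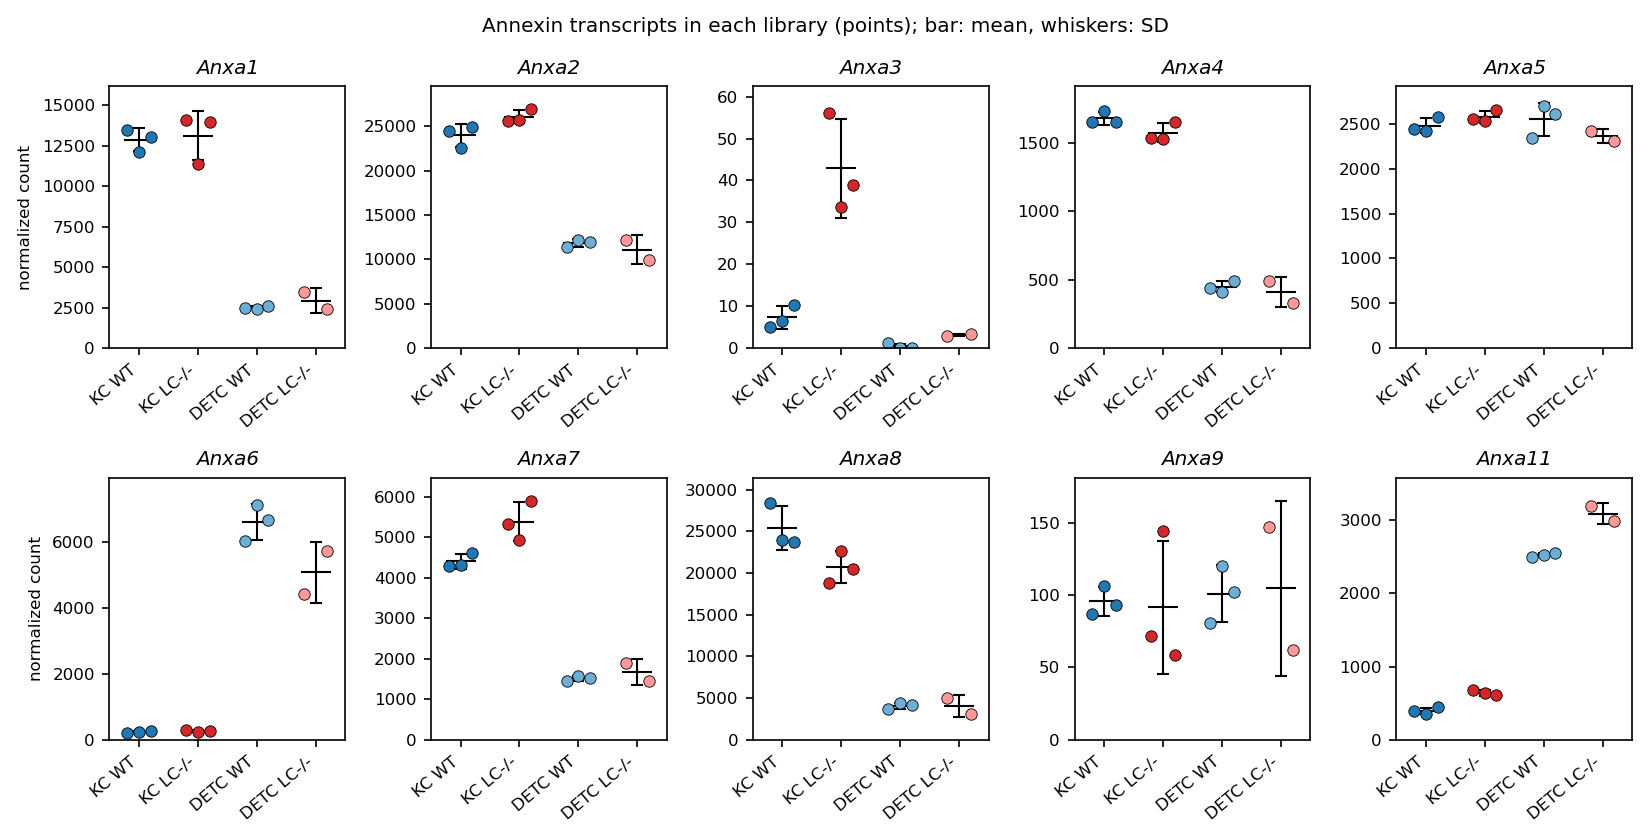
Normalized count (y axis, linear, from 0, a scale of its own for each gene) of the 10 annexins in each library (points) by population and genotype, with the mean (bar) and SD (whiskers). Anxa3 lay between 5.12 and 10.4 in WT KCs and between 33.6 and 56.2 in LC-/- KCs; Anxa11 was higher in every LC-/- library of both populations than in every WT library of the same population.

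Among the other members in KCs, those whose genotypes did not overlap were Anxa2, Anxa7 and Anxa11, which were higher in LC-/- KCs, and Anxa8, which was lower. With Anxa3 that made 4 members higher and 1 lower, beside 16.6% and 14.9% of all genes, and 5 members overlapped. The place of Anxa3 in this count was fixed by the choice of the family. The count is thus a description and nothing is read from it. Anxa11 had a mean of 394 ± 43.8 in WT and 640.1 ± 39.6 in LC-/- KCs (SD, n = 3), a log2 fold change of 0.70 ± 0.10 and rank 410 of the 14419 genes by that value. Anxa7 had 4295, 4305 and 4614 in WT and 5334, 4918 and 5880.1 in LC-/- KCs, a log2 fold change of 0.28 ± 0.08. Anxa8 had 18810.4, 22639 and 20479 in LC-/- KCs, all below the WT values given above, with a log2 fold change of -0.29 ± 0.11. Anxa2 had 24505, 22506 and 24912 in WT and 25573, 25745 and 26994 in LC-/- KCs, a small gap with a log2 fold change of 0.12 ± 0.07 that became -0.06 with quantile normalization. The log2 fold changes of the 5 that overlapped were 0.23 ± 0.13 for Anxa6, 0.06 ± 0.04 for Anxa5, 0.02 ± 0.10 for Anxa1, -0.09 ± 0.04 for Anxa4 and -0.17 ± 0.36 for Anxa9. Those of Anxa5 and Anxa1 became -0.08 and -0.12 with quantile normalization. Over the 9 members without Anxa3, the median was 0.06, beside -0.01 for all genes tested.

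In DETCs, none of the 9 members tested was called between genotypes by limma, edgeR or DESeq2. Of all genes, 3.13% were called higher and 0.43% lower in LC-/- DETCs, 452 and 62 genes, a split that became 178 and 85 with quantile normalization. At an unadjusted p under 0.05, 2 members passed in limma, Anxa11 and Anxa6. Both also did not overlap between genotypes, Anxa11 being higher and Anxa6 lower in LC-/- DETCs. With Anxa3, whose reads were at the limit, 2 members were higher and 1 lower without overlap, beside 21.3% and 16.5% of all genes.

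Anxa11 had a mean of 2529.6 ± 21.7 in WT (n = 3) and 3095 ± 146 in LC-/- DETCs (n = 2, SD). The log2 fold change was 0.29 ± 0.08 (limma, adjusted p = 0.0971), and the adjusted p ran from 0.0527 to 0.415 over the alternatives. After subtraction of the keratinocyte share, without rescaling for dilution by keratinocyte RNA, it was 0.27 (limma, adjusted p = 0.131). Its genotype values stood apart in the same direction in KCs, where it is given as a description only. The difference between the 2 populations in this change was not tested.

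Anxa6 had a mean of 6601 ± 544 in WT (n = 3) and 5072 ± 927 in LC-/- DETCs (n = 2, SD), a log2 fold change of -0.39 ± 0.13 (limma, adjusted p = 0.157). The lower of both LC-/- libraries was L2, which also had the highest keratinocyte share, and the value after subtraction was -0.40 (limma, adjusted p = 0.307). As Anxa6 was low in KCs, subtraction removed little of it, and without rescaling it does not account for dilution by keratinocyte RNA. The part of the share of L2 in this difference was not tested. Without L2 it was -0.20 and without L3 -0.58, and quantile normalization made it -0.62 (limma, adjusted p = 0.0469). In KCs Anxa6 overlapped between genotypes.

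**Figure D4:**
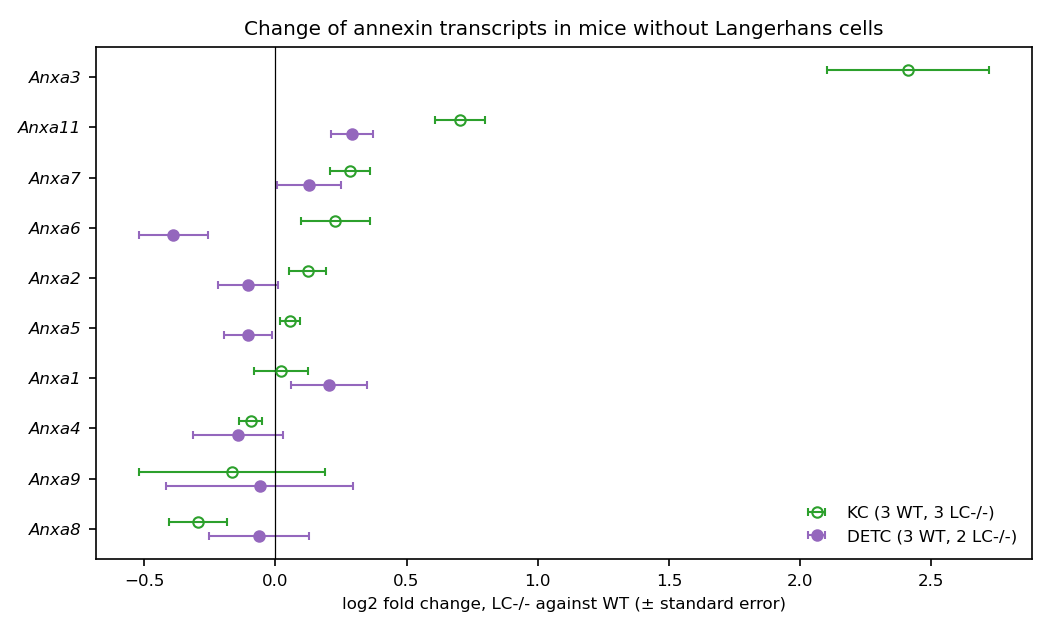
Log2 fold change of LC-/- against WT (x axis, with the SE) for the 10 annexins in KCs (open green) and DETCs (filled violet); Anxa3 has no DETC value. Anxa3 stands at 2.41 and Anxa11 at 0.70 in KCs, and the DETC values run from -0.39 for Anxa6 to 0.29 for Anxa11.

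The log2 fold changes of the remaining members in DETCs were 0.20 ± 0.15 for Anxa1 (limma, adjusted p = 0.503), 0.13 ± 0.12 for Anxa7 (limma, adjusted p = 0.622), -0.06 ± 0.19 for Anxa8 (limma, adjusted p = 0.897), -0.06 ± 0.36 for Anxa9 (limma, adjusted p = 0.951), -0.10 ± 0.12 for Anxa2 (limma, adjusted p = 0.678), -0.11 ± 0.09 for Anxa5 (limma, adjusted p = 0.590) and -0.14 ± 0.17 for Anxa4 (limma, adjusted p = 0.709). For all of the 9 members tested except Anxa6, the L2 library was above the L3 library, as was its keratinocyte share, for example 4927 and 3037 normalized counts of Anxa8 or 3462 and 2403 of Anxa1. This spread between 2 libraries enters the SEs of these genes, which also rest on the WT libraries and on moderated variances. The medians without Anxa3 were -0.06 for the members and 0.02 for all genes.

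The genes with a profile most like that of Anxa3 over the 11 libraries were found by the smallest root mean square difference between log2 profiles, each centred on its own mean, a description in which 5 of the 11 values of Anxa3 rest on 0 to 3 reads and so on the pseudocount. Among the closest were Ifi203-ps (0.451), Gm18445 (0.563), Hs3st1 (0.572), a heparan sulfate sulfotransferase, and Slc1a1 (0.617), a glutamate transporter. Hs3st1 had mean normalized counts of 787 (WT) and 2119 (LC-/-) in KCs and stood at 108 (WT) and 391 (LC-/-) in DETCs. By this measure, Anxa1 ranked 610, Anxa7 1166, Anxa8 1262, Anxa4 1505 and Anxa2 2524 among 14418 genes, and Anxa5, Anxa9, Anxa11 and Anxa6 ranked from 6553 to 13472.

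The partners of annexins were read from lists of genes. Of 11 binding partners, 10 were tested. In KCs limma and edgeR called 1 each and DESeq2 2, and 4 passed an unadjusted p under 0.05 in limma. S100a10, the partner of Anxa2, was the one called in KCs by limma, with 5276 ± 181 in WT and 6567 ± 115 in LC-/- libraries (SD, n = 3), a log2 fold change of 0.32 ± 0.04 (limma, adjusted p = 0.0238). S100a11, a partner of Anxa1, had 0.15 ± 0.05 (limma, adjusted p = 0.120) and S100a6, a partner of Anxa11, 0.26 ± 0.07 (limma, adjusted p = 0.104) in KCs. In DETCs Sri, the sorcin that binds Anxa7, was the one called and was lower, with 1099 ± 47.5 in WT (n = 3) and 829.6 ± 3.56 in LC-/- libraries (n = 2, SD; limma, adjusted p = 0.0495), whereas Anxa7 itself had the value given above. Between populations, 4 partners were higher in DETCs and 5 lower in both genotypes. The shares of all genes were 41.0% higher and 35.1% lower in WT DETCs, and 38.1% and 32.1% in LC-/- DETCs. S100a6 and Pdcd6, which bind Anxa11, and Sri and S100a4 were on the DETC side, with WT log2 differences of 1.25, 0.77, 1.30 and 4.42. S100a10 and S100a11 were on the KC side with -0.91 and -0.47, as were Ahnak (-0.69), a scaffold that binds Anxa2 with S100a10, Gsn (-1.45) and Plscr3 (-1.66). The list's median between WT populations was -0.37, beside 0.07 for all genes.

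None of the 5 listed formyl peptide receptor genes, a family that includes receptors of Anxa1, had a read in any library. Of the 6 genes of cytosolic phospholipase A2, the enzyme family that Anxa1 restrains, 3 were tested, and none was called between genotypes by limma; 1 in each population passed an unadjusted p under 0.05, and in KCs edgeR called Pla2g4e and DESeq2 Pla2g4f. All 3 were lower in DETCs in both genotypes, as were 35.1% (WT) and 32.1% (LC-/-) of all genes. Pla2g4a had 893 ± 61.4 in WT and 821 ± 124 in LC-/- KCs (SD, n = 3) and 121 ± 15.2 in WT DETCs (SD, n = 3). Pla2g4e had 28.0 ± 9.85 in WT and 65.2 ± 9.73 in LC-/- KCs (SD, n = 3), with a log2 fold change of 1.25 ± 0.32 (limma, adjusted p = 0.0814).

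Of 18 genes of plasma membrane repair, the process in which annexins cap a torn membrane, 17 were tested. In KCs 3 were called by limma, all higher in LC-/- mice, beside 5.37% of all genes called higher and 1.85% lower. edgeR and DESeq2 called 6 each, and 10 passed an unadjusted p under 0.05 in limma. The 3 in limma were both subunits of calpain 2, the protease that cuts cortical proteins during repair, Capn2 (845 ± 163 and 1577 ± 95.4 in WT and LC-/- KCs, SD, n = 3; limma, adjusted p = 0.0316) and Capns1 (1278 ± 85.7 and 1736 ± 45.6; limma, adjusted p = 0.0245), and Ehd1 (3021 ± 78.6 and 4303 ± 243; limma, adjusted p = 0.0193), which reshapes endocytic membranes. Genes not called by limma went both ways in KCs. Capn1 (-0.27 ± 0.06, limma, adjusted p = 0.0552), Ehd2 (-0.37 ± 0.08, limma, adjusted p = 0.0564), Cavin1, Trim72 and Tsg101 were lower in LC-/- KCs without overlap. Ahnak, Pdcd6ip and Chmp4b were higher without overlap. Among all genes, 14.9% were lower and 16.6% higher without overlap in LC-/- KCs. In DETCs no gene of the list was called by limma or edgeR, 2 by DESeq2 and 2 at an unadjusted p under 0.05. The median of the list in KCs was 0.05, beside -0.01 for all genes. Between WT populations 5 were higher in DETCs and 11 lower, beside 41.0% and 35.1% of all genes. In LC-/- mice 4 were higher and 10 lower, beside 38.1% and 32.1% of all genes.

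Of 12 genes of phosphatidylserine exposure and recognition, 11 were tested and none was called between genotypes by limma in either population, with 2 in KCs and 1 in DETCs at an unadjusted p under 0.05. edgeR and DESeq2 called Ano6 in KCs, and DESeq2 called Atp8a1 in DETCs. In WT mice 6 were higher in DETCs, among them Plscr1, of the phospholipid scramblase family (3834 ± 316 against 4.50 ± 3.09 in KCs, SD, n = 3) and Mfge8 (588 ± 22.5 against 134 ± 6.96), a bridge to phagocytes, and 5 were lower, among them the scramblase Ano6 and the receptors Axl, Mertk and Tyro3. In LC-/- mice 4 were higher and 5 lower. The shares of all genes were 41.0% higher and 35.1% lower in WT DETCs, and 38.1% and 32.1% in LC-/- DETCs.

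Of 8 genes of plasminogen activation, which Anxa2 serves, 7 were tested. In KCs Plaur, the urokinase receptor, was higher, with 285 ± 67.7 in WT and 913 ± 126 in LC-/- libraries (SD, n = 3), a log2 fold change of 1.69 ± 0.20 (limma, adjusted p = 0.0207). Eno1, a glycolytic enzyme that also binds plasminogen, was lower in KCs with -0.45 ± 0.06 (limma, adjusted p = 0.0275). In DETCs Serpinb2, an inhibitor of urokinase, was higher with 1.17 ± 0.25 (limma, adjusted p = 0.0488), and its mean of 22286 in LC-/- DETCs lay beside 130906 in LC-/- KCs. In each DETC library its percent of the KC mean of the same genotype was below the keratinocyte share of that library, and the part of this share in the difference was not tested. Serpinb2 was lower in DETCs than in KCs in both genotypes, as were Plat and Plau. In WT mice 2 genes were higher in DETCs (Plaur and Plgrkt) and 4 lower, and in LC-/- mice 2 (Plgrkt and Eno1) and 5. Plaur changed sides, with a log2 difference of 0.66 in WT (limma, adjusted p = 0.00638) and -0.50 in LC-/- mice (limma, adjusted p = 0.0269).

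The markers of other cells were set beside these values. Between genotypes in KCs, 1 of 18 keratinocyte markers was called by limma (Dsg3, higher), 1 of 5 tested wound keratinocyte markers (Krt16, higher) and 1 of 18 DETC markers (Cd3g, higher), and 4 of 9 tested LC markers were lower. Some of these rest on few reads: Cd3g had 0.864 to 1.02 normalized counts in WT and 3.15 to 9.92 in LC-/- KCs. Ctss, an LC marker, had 4.10 to 5.57 in WT and 0 in LC-/- KCs. DESeq2 called 0 DETC markers and 2 LC markers in KCs. The summed level of the keratinocyte list was 747916 to 789622 in WT and 739201 to 781312 in LC-/- KCs, so these ranges overlapped. The summed level of 6 neutrophil markers, cells known for Anxa3, was 0.864 to 1.86 in WT and 0 to 1.05 in LC-/- KCs. In KC libraries the DETC list summed to 18.2 to 27.7 in WT and 19.3 to 51.5 in LC-/- mice, against 210636 to 247722 in DETC libraries. In DETCs, none of the 18 keratinocyte markers was called between genotypes by limma or edgeR, 5 passed an unadjusted p under 0.05 in limma and 3 were called by DESeq2, and their median log2 fold change was 0.28.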

How the data were processed

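RNA-seq libraries of sorted KCs (6) and DETCs (5) were grouped by the genotype and population in their labels. The authors checked reads with FastQC, trimmed them with cutadapt, aligned them to GRCm38 with hisat2, obtained gene counts from featureCounts and normalized these by the median of ratios in DESeq2; versions, annotation release and use of strand are not given in the sources used here. The deposited values are this signal on the scale of counts, with no log transformation and no filter. Divided by the smallest step of the library, 100% of values came out as whole reads within 0.01 reads, so read counts were recovered. One figure legend of the study calls each library a separate animal; the labels do not say whether the number in a KC and a DETC library is the same mouse, so such libraries were not treated as paired.

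Groups were compared on log2(normalized count + 1) with limma 3.58.1 in R 4.3.3 (moderated variances with a trend on the mean, Benjamini-Hochberg adjustment over 14419 genes, threshold 0.05), each comparison in its own fit; SEs are those of limma, and fold changes of low genes are understated on this scale. Symbols matched 52403 of 52550 identifiers; lengths are summed exons of GENCODE mouse release 21. Alternatives were edgeR 4.0.16 and DESeq2 1.42.0 on recovered reads, pseudocounts of 0.5 and 8, no filter, a minimum mean of 10, quantile normalization, variances without the trend, a single fit over the 11 libraries, a replicate block between populations, omission of each replicate and, added after seeing the data, subtraction of the keratinocyte share (the median over 18 markers). Near copies were sought with blastn at 90% identity over 200 bases. On simulated counts with 200 genes changed 2-fold, limma recovered 133 in the KC, 163 in the DETC, 192 in the WT population and 163 in the LC-/- population comparison, with 14 to 17 false calls. Named genes were the 10 members, list genes that were called or bind a member, the gene next to Anxa3 by KC change and the 5 genes most like Anxa3; some genes that this rule names are not reported here. The members and lists were chosen with earlier results of these data known.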

Additional observations from a re-analysis of the deposited data

How the results depend on the processing

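Of the member values under the alternatives, 122 of 135 between DETC genotypes, 143 of 150 between KC genotypes, 146 of 153 between WT populations and 138 of 144 between LC-/- populations kept their direction and their side of the threshold (for KCs, stayed within 1 SD). The direction of Anxa6, Anxa11, Anxa8, Anxa1, Anxa4, Anxa7 and Anxa2 between populations held in each of them, of which subtraction can only lower DETC values and so is no test for the last 5. Genes called between DETC genotypes (514) numbered 483 with edgeR, 1079 with DESeq2, 185 without a filter, 263 with quantile normalization, 959 in 1 fit over all libraries, 0 without trend (at an unadjusted p under 0.05, 1554 and 853), 9 after subtraction, and 35 to 590 when 1 library was left out (35 without L2, 42 without W3, 73 without W2). Genes called between KC genotypes (1042) numbered 1783 with edgeR, 1752 with DESeq2, 340 without a filter, 1740 with a minimum mean of 10, 633 with quantile normalization and 5 to 721 with 1 library left out. Of the members, quantile normalization called 1 in DETCs (Anxa6), and in KCs 0 were called without a filter and 0 to 2 with 1 library left out. DETC genotype values that changed sign were Anxa1 (-0.060 without L2 to 0.47 without L3, -0.26 after subtraction), Anxa7 (-0.068 without L2 to 0.32 without L3, -0.39 after subtraction), Anxa8 (-0.41 without L2 to 0.29 without L3, 0.092 after subtraction), Anxa2 (-0.26 without L2 to 0.047 without L3), Anxa4 (-0.42 without L2 to 0.14 without L3) and Anxa9 (0.010 with edgeR, 0.023 with DESeq2, 0.075 without W2, -0.68 without L2 to 0.56 without L3). Between WT populations, Anxa5 was -0.011 with edgeR, -0.25 with quantile normalization, -0.20 after subtraction and -0.0016 (without DETC W2) to 0.10 with 1 library left out, and Anxa9 was -0.30 with quantile normalization, -0.18 after subtraction and -0.070 (without DETC W2) to 0.22 with 1 library left out. Between LC-/- populations, Anxa9 was -0.24 with quantile normalization, -0.13 after subtraction, -0.088 without KC L3 and -0.45 (without DETC L2) to 0.79 (without DETC L3) with 1 library left out, and Anxa5 passed the threshold at -0.44 with quantile normalization and -0.47 after subtraction. The causes of these changes were not tested. Subtraction can only lower DETC values and moved the median of all genes to -0.17 in WT and -0.22 in LC-/- mice. It is thus no test of the lower Anxa5 and Anxa9 values in DETCs. Deviations of same-numbered KC and DETC libraries from their group means correlated with r of -0.053 (W1), 0.067 (W2), 0.12 (W3), 0.14 (L2) and 0.12 (L3) over 14419 genes, and 4 of the 5 DETC libraries, all but W1, correlated best with the KC library of their own number. This is a hint from the data, not the design, so the numbers were not treated as pairs. With the replicate block in the fit, 5858 genes were higher and 5015 lower in WT DETCs, 5141 and 4210 in LC-/- DETCs, and no member call changed. Leaving out a DETC LC-/- library leaves 1, which is then assumed to vary like the WT libraries. Depth limits Anxa3 in DETCs (0 to 3 reads) and Anxa9 (56 to 152 reads).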

Other observations

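Markers of cells that the gates should leave out or that line the hair follicle were read from the same libraries. No tested gene of the hair follicle and infundibulum list (8 of 8 tested), the sebaceous gland list (4 of 5), the fibroblast list (3 of 6), the endothelial list (2 of 6), the melanocyte list (2 of 6), the mast cell list (1 of 5, Kit) or the immediate early list (7 of 7) was called between genotypes in KCs or in DETCs by limma with Benjamini-Hochberg adjustment. At an unadjusted p under 0.05, 2 hair follicle genes and 1 gene each of the sebaceous gland, fibroblast, melanocyte and immediate early lists passed in KCs, and 3 hair follicle, 2 sebaceous gland and 4 immediate early genes passed in DETCs. edgeR called Sox9, Dcn, Dct and Fos in KCs, and DESeq2 called Sox9 and Fos in KCs and Fosb, Egr1 and Atf3 in DETCs. None of the 6 neutrophil markers passed the filter on low values. All 8 hair follicle genes were lower in DETCs than in KCs in both genotypes, beside 35.1% (WT) and 32.1% (LC-/-) of all genes. Kit, the stem cell factor receptor that the sort gated against, was higher in DETCs than in KCs in both genotypes, with a log2 difference of 5.64 in WT mice. Of the LC list, the MHC class II genes H2-Aa, H2-Ab1, H2-Eb1 and Cd74 were lower in LC-/- DETCs by limma, and Cd207, H2-Aa, Cd74 and Ctss were lower in LC-/- KCs. edgeR called 4 genes of the list in DETCs and 5 in KCs, and DESeq2 called 2 in each.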
